A study of Mus musculus with 8 samples.

Results

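The genes described here encode the non-collagenous core of the basement membrane: the laminin chains Lama1, Lama4, Lama5, Lamb1, Lamb2 and Lamc1, the nidogens Nid1 and Nid2, the heparan sulphate proteoglycan perlecan (Hspg2) and agrin (Agrn). They were chosen by symbol, 10 of the 54532 genes in the count table, and all 10 were found. Gene expression had been profiled in lens capsules of adult wild-type C57BL/6 mice aged 6 to 8 weeks, taken 7 days after surgery. In 4 libraries the capsules came from injury-induced ASC eyes, in which a 26-gauge hypodermic needle had been passed through the cornea to open the centre of the anterior lens capsule; the submitters describe this as a model of fibrotic cataract. The other 4 libraries came from sham-operated eyes, which received a corneal incision and kept the lens capsule closed. Replicates are described as biological, and how many capsules or mice made up a library is not stated in those sources. If capsules were pooled or shared, p-values measure only the spread between these libraries.

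The lens capsule is a thick basement membrane laid down by the lens epithelium at its front and by elongating fibre cells at its back. Laminins are cross-shaped proteins made of 1 alpha, 1 beta and 1 gamma chain that polymerise on the cell surface, where integrins and dystroglycan hold them. Their names list the chains, so that laminin 511 is alpha 5, beta 1 and gamma 1. Nidogens and perlecan link the laminin network to type IV collagen, and agrin ties laminins to dystroglycan.

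Library totals lay between 14420494 and 21141582 counts. Lens epithelium markers were abundant in both groups, with a summed level of 3418 to 3815 CPM in ASC and 3516 to 3914 CPM in sham over 10 genes. Of the 9 tested, edgeR called 1, Mab21l1, lower in ASC, where 1.02% of all 15857 tested genes were called. Mab21l1 was at 66.3 to 82.1 CPM in ASC and 133 to 175 CPM in sham (log2 fold change -0.96, edgeR adjusted p = 0.0021). Pax6 did not overlap either, at 386 to 436.5 CPM in ASC and 437.1 to 483 CPM in sham (edgeR adjusted p = 0.502). CPM are reads of a gene per unit of library size, scaled with edgeR's TMM factors. Endothelial markers were low, at 7.53 to 20.6 CPM in ASC and 8.78 to 21.4 CPM in sham for 10 genes together. Lens fibre markers summed to 9685 to 24060 CPM in ASC and 8862 to 12790 CPM in sham over 10 genes. Of these, 0 were called by edgeR (DESeq2 called 4 and limma-voom 2, and 4 had an unadjusted p under 0.05), and Lgsn was at 667.7 to 5463 CPM in ASC and 253 to 652 CPM in sham. Retinal markers summed to 1958 to 3755 CPM in ASC and 1021 to 4186 CPM in sham. The summed pigment cell markers reached 239 to 809 CPM in ASC and 106 to 309 CPM in sham, and the 6 red cell markers 73.9 to 370.2 CPM in ASC and 40.1 to 62.8 CPM in sham. The corneal epithelium markers, of which Clu made up most, summed to 5248 to 6651 CPM in ASC and 5175 to 5737 CPM in sham. Of 7 tested, 2 were called, the keratins Krt5 (4.02 to 16.7 CPM in ASC, 0.447 to 1.73 CPM in sham) and Krt12 (2.93 to 6.31 CPM in ASC, 0 to 0.983 CPM in sham). Corneal stroma and fibroblast markers, of which Col6a3, Ogn and Pdgfra made up most, summed to 1141 to 1538 CPM in ASC and 1143 to 1325 CPM in sham. Of 8 tested, edgeR called 1, Col1a1 (4.02 to 5.13 CPM in ASC, 1.16 to 2.01 CPM in sham). Dcn did not overlap either (7.59 to 31.2 CPM in ASC, 0.67 to 5.81 CPM in sham, edgeR adjusted p = 0.235). Kera was at 0 to 0.231 CPM in ASC and 0 in sham, and Lum at 0.1275 to 2.49 CPM in ASC and 0 to 0.42 CPM in sham. The part of these other cells in the results below was not tested, except where a value is given.

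Nid1 and Hspg2 made up most of the transcripts of the group. Together they took 80.0% ± 1.81 of the summed CPM of the 10 genes in ASC and 78.2% ± 1.78 in sham (SD, n = 4 each). Levels of different genes were compared as CPM per kb of exonic length, the combined length of all annotated exons of a gene. Over the 8 libraries Nid1 averaged 290.8 ± 39.9 and Hspg2 103 ± 15.4 CPM per kb (SD, n = 8). Next came Lama5 at 24.0 ± 2.52, Lamc1 at 22.0 ± 2.32, Lamb2 at 19.2 ± 2.77 and Lamb1 at 18.8 ± 1.43 CPM per kb. These 4 laminin genes overlapped in range, each with the next in the order. Lama1 averaged 8.54 ± 1.04, Agrn 6.64 ± 1.04 and Nid2 2.39 ± 1.32 CPM per kb, and Lama4 was close to 0. Nid1 stood above Hspg2, and Hspg2 above Lama5, in 8 of 8 libraries. The lengths of alternative transcripts bear on these values. With the coding length in place of the exonic length Nid1 was at 541 ± 74.2, Lamc1 at 37.7 ± 3.98 and Lamb1 at 33.9 ± 2.57 CPM per kb, and with the longest transcript Lamb1 was at 32.3 ± 2.45.

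**Figure D1:**
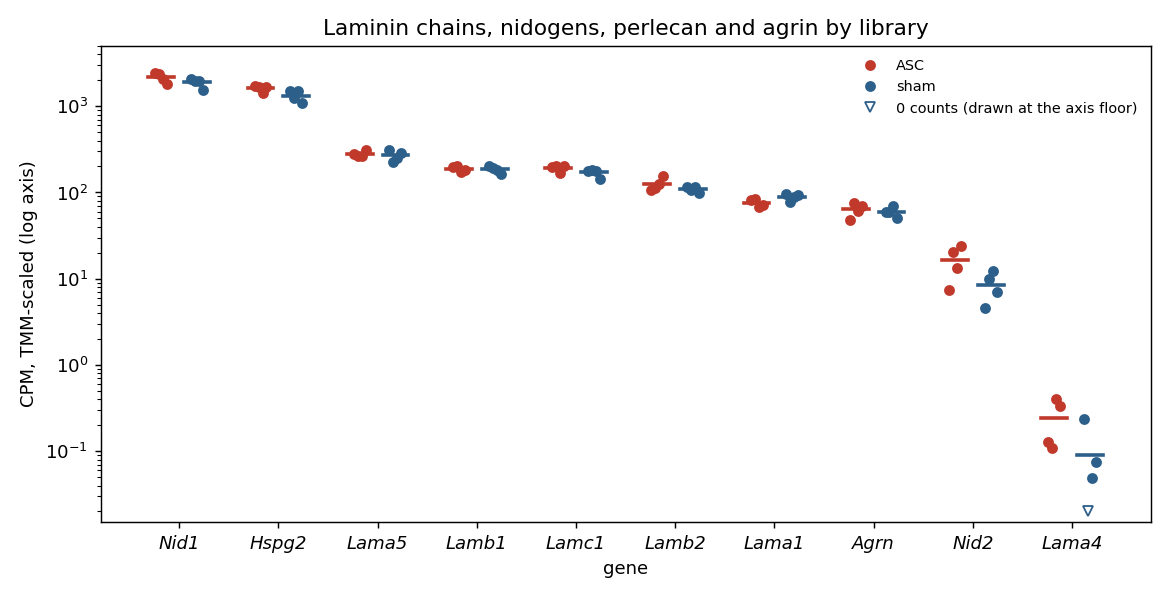
CPM of each gene on a log axis, with 1 point per library (ASC left, sham right of each pair) and a line at the group mean, n = 4 each. Nid1 and Hspg2 lie between 1082 and 2413 CPM in the 8 libraries, the laminin chains other than Lama4 between 67.7 and 308.4 CPM, and Lama4 at or below 0.405 CPM.

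Of the 10 genes, 9 had enough counts to be tested, Lama4 being left out by the low-count filter. None of the 9 passed edgeR's quasi-likelihood test of ASC against sham at an adjusted p under 0.05, a threshold that 1.02% of the 15857 genes tested passed (0.631% higher in ASC and 0.391% lower). DESeq2 and limma-voom also called 0 of them, and 0 had an unadjusted p under 0.05, which 14.7% of all tested genes had. The ASC and sham libraries overlapped for 9 of 9, while they did not overlap for 9.06% of all tested genes. The log2 fold change of ASC over sham was positive for 8 and negative for 1, with a median of 0.17 against 0.01 for all tested genes. Scaled by library totals alone, which moved the median of all genes to -0.12, 5 of the 9 were positive and their median was 0.04. In bulk tissue a change in the number of cells of a type and a change in RNA per cell cannot be told apart.

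The alpha chain carries the receptor-binding end of a laminin and is the chain that differs most between tissues. Lama5, the alpha 5 chain of many adult epithelial basement membranes, had 276, 267, 262 and 308 CPM in ASC and 308, 224, 254 and 290 CPM in sham. The highest libraries of both groups were nearly equal, the lowest was sham 2, and the log2 fold change was 0.05 (SE 0.12, 95% confidence interval -0.20 to 0.31; edgeR adjusted p = 0.887). Lama1, the alpha 1 chain of the embryonic basement membrane, had 81.4, 84.6, 67.7 and 72.0 CPM in ASC and 96.5, 77.5, 88.6 and 93.3 CPM in sham. It was the only gene of the 9 with a negative log2 fold change, at -0.22 (SE 0.10, interval -0.44 to 0.005; edgeR adjusted p = 0.35). The sham 2 library, at 77.5 CPM, lay within the ASC range. Lama4, an alpha chain typical of blood vessels, muscle and fat, was almost without reads. It had 2, 2, 7 and 5 reads in ASC and 5, 0, 1 and 1 reads in sham, so no fold change is given. The 0 in sham 2 allows up to 3 reads, or 0.152 CPM, counting error only. The 10 endothelial markers differed in level among themselves. The endothelial cadherin Cdh5 was at 0.0638 to 0.877 CPM in ASC and 0 to 0.609 CPM in sham. Kdr, the highest of the 10, was at 2.81 to 10.21 CPM in ASC and 4.09 to 15.01 CPM in sham. Whether the level of Lama4 follows the amount of vessel tissue was not tested.

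The alpha chains outside the chosen 10 were of the same order as Lama1. Lama2, the alpha 2 chain best known from muscle and peripheral nerve, had 198.5, 194, 173.5 and 144 CPM in ASC and 169.5, 158, 164 and 139 CPM in sham. Lama3, the alpha 3 chain of skin and other surface epithelia, had 128, 72.6, 124 and 157 CPM in ASC and 149, 128, 115 and 143 CPM in sham. The ASC 2 library was the low one, and without it the log2 fold change of Lama3 was 0.02 in place of -0.16 (SE 0.20). Neither Lama2 (0.17, SE 0.12; edgeR adjusted p = 0.537) nor Lama3 (edgeR adjusted p = 0.782) passed the test.

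Per exonic kb, Lama5 made up 45.0% ± 1.85 of the alpha chain transcripts in ASC and 42.9% ± 2.15 in sham (SD, n = 4 each). It was the highest alpha chain in 8 of 8 libraries with exonic, longest-transcript or coding length. Lama3 followed with 20.4% ± 5.05 in ASC and 22.7% ± 1.58 in sham. Lama2 held 20.1% ± 3.49 in ASC and 17.7% ± 2.18 in sham, and Lama1 14.6% ± 1.93 in ASC and 16.8% ± 0.602 in sham. The order of Lama2 and Lama3 depended on the length used: Lama2 was above Lama3 in 2 of 8 libraries per exonic kb and in 8 of 8 per kb of longest transcript. The place of Lama3 also depends on its isoform. The annotation holds a long and a short Lama3 transcript, of 10548 and 5551 bases. If all reads came from the short one, Lama3 would stand at 21.6 ± 6.29 CPM per kb in ASC and 24.1 ± 2.76 in sham, and Lama5 would be higher in only 5 of 8 libraries. Gene counts cannot separate these isoforms. Lama4 took at most 0.0644% of the alpha chain level in any library.

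**Figure D2:**
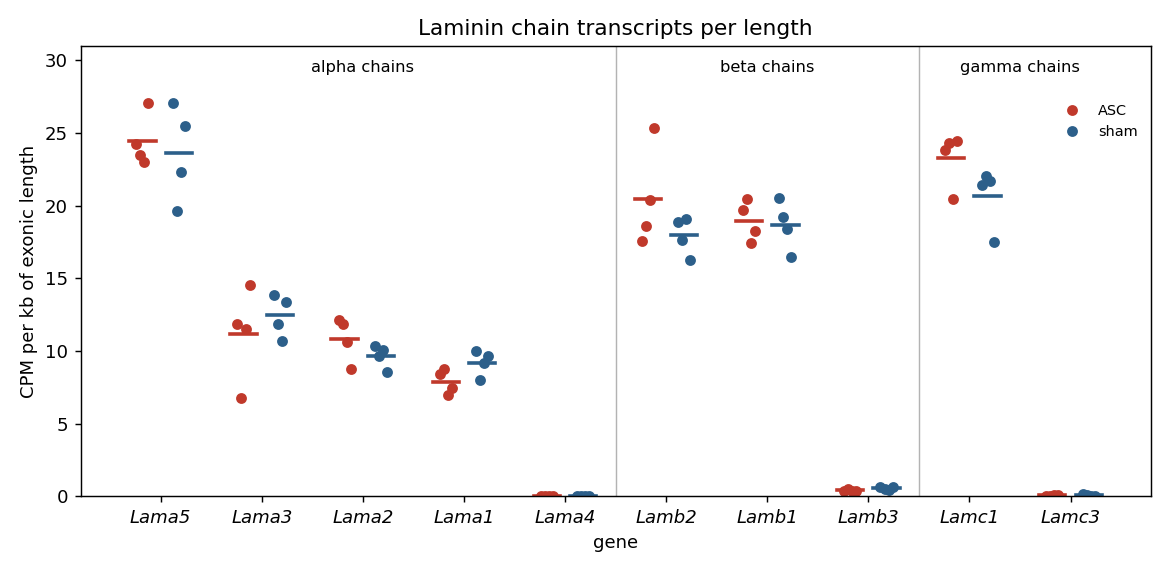
CPM per kb of exonic length for 10 laminin chain genes, by class, with 1 point per library (ASC left, sham right) and a line at the group mean, n = 4 each. Lama5, Lamb1, Lamb2 and Lamc1 lie highest, Lama3, Lama2 and Lama1 form a second tier, and Lama4, Lamb3 and Lamc3 lie below 1 CPM per kb.

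The beta chains came from Lamb1 and Lamb2 in nearly equal amounts per exonic kb. Lamb1, the beta 1 chain of most laminins, had 195, 203, 173 and 181 CPM in ASC and 203, 191, 183 and 164 CPM in sham. The groups lay on top of each other, with a log2 fold change of 0.02 (SE 0.10, interval -0.19 to 0.24; edgeR adjusted p = 0.942). Lamb2, the beta 2 chain known from the neuromuscular junction and the kidney filter, had 107, 113, 124 and 154 CPM in ASC and 115, 107, 116 and 98.8 CPM in sham. Its highest value was ASC 4, and the log2 fold change was 0.19 (SE 0.12, interval -0.07 to 0.45; edgeR adjusted p = 0.49). Lamb1 held 47.8% ± 5.12 of the beta chain level in ASC and 50.2% ± 1.45 in sham, Lamb2 51.2% ± 5.29 in ASC and 48.4% ± 1.49 in sham. With the longest transcript as length, Lamb1 held 59.0% ± 4.96 in ASC and 61.3% ± 1.37 in sham and was above Lamb2 in 8 of 8 libraries, against 5 of 8 per exonic kb. Lamb3, a beta chain of skin and other surface epithelia, had 2.36 to 3.42 CPM in ASC and 3.05 to 4.26 CPM in sham (log2 fold change -0.41, SE 0.24; edgeR adjusted p = 0.451).

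Lamc1, the gamma 1 chain shared by most laminins and the one that binds nidogen, was nearly alone in its class. It had 197, 201, 169.5 and 202 CPM in ASC and 177, 182, 179 and 145 CPM in sham. The lowest libraries, ASC 3 and sham 4, each stood well below the other 3 of their group. The log2 fold change was 0.17 (SE 0.10, interval -0.06 to 0.40; edgeR adjusted p = 0.483). Lamc1 held 97.1% ± 0.403 of the gamma chain level in ASC and 96.9% ± 0.639 in sham. Lamc3 had 1 to 11 reads per library in ASC and 4 to 16 in sham and was not tested.

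Taking the most abundant gene of each class per exonic kb gives the chains of laminins 511 and 521. In each library the transcript level that a trimer could reach is limited by its least abundant chain. For laminin 511 that limit was 19.0 ± 1.37 CPM per exonic kb in ASC and 18.7 ± 1.68 in sham, set by Lamb1 in 8 of 8 libraries. For laminin 521 it was 20.3 ± 3.02 in ASC and 17.96 ± 1.32 in sham. The limits for 311 and 321, set by Lama3, were 11.2 ± 3.25 in ASC and 12.4 ± 1.43 in sham. If all Lama3 reads came from the short transcript, Lama3 would average 21.6 CPM per kb in ASC and 24.1 in sham, above the laminin 511 limits. The place of 311 and 321 below 511 and 521 thus depends on the Lama3 isoform, which gene counts cannot separate. The limits for 211 and 221, set by Lama2, were 10.9 ± 1.53 in ASC and 9.65 ± 0.805 in sham, and those for 111 and 121, set by Lama1, 7.89 ± 0.815 in ASC and 9.19 ± 0.859 in sham. Laminins 411 and 421 were limited by Lama4 to 0.0203 ± 0.0123 in ASC and 0.0074 ± 0.0084 in sham. These limits overlap as chains are shared between trimers, and none of them measures assembled protein. In all 8 libraries the summed alpha chains exceeded the summed beta chains, which exceeded the gamma chains, at 54.4 ± 3.44, 39.9 ± 2.87 and 24.0 ± 1.85 CPM per exonic kb in ASC and 54.9 ± 5.31, 37.2 ± 2.80 and 21.3 ± 2.07 in sham. The order was the same with the other 2 lengths. With the longest transcript as length the limit of laminin 211 was 18.5 ± 2.60 in ASC and 16.4 ± 1.37 in sham, while that of laminin 511 was 24.1 ± 1.81 in ASC and 21.1 ± 2.06 in sham.

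**Figure D3:**
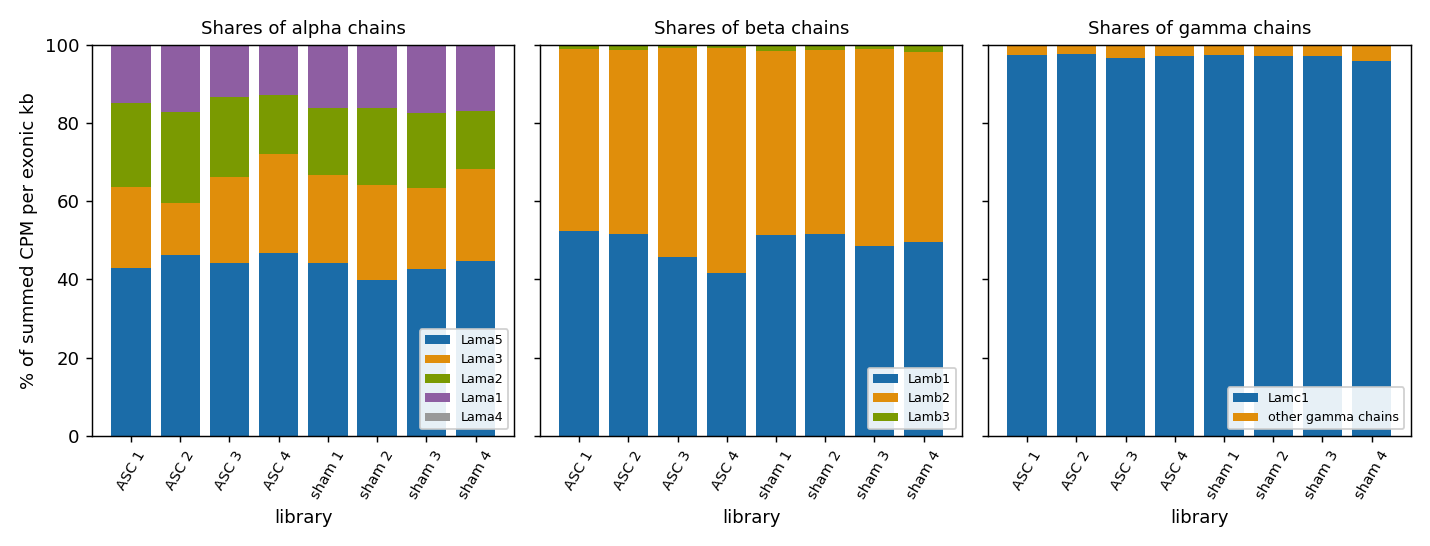
Share of each gene in the summed CPM per exonic kb of its laminin chain class, as stacked bars per library from 0 to 100%, ASC libraries left of sham. Lama5 is the lowest block of the alpha bars at 39.9% to 46.8%, Lamb1 and Lamb2 divide the beta bars, and Lamc1 fills 95.9% to 97.6% of the gamma bars.

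Whether the injury shifted the balance between chains was asked of 8 shares with two-sided exact permutation tests over 70 assignments, whose smallest p is 0.0286. None passed after adjustment over the 8 shares. A share at that smallest p on its own gets an adjusted p of 0.229, and at least 5 shares would have to reach it together to pass, so the adjusted test could not call 1 share alone. The Lama1 share of alpha chains differed by -2.19 percentage points, ASC minus sham (exact p = 0.114, adjusted p = 0.457), with ASC 2 at 17.2% inside the sham range of 16.3% to 17.5%. Without ASC 2 the Lama1 share differed by -3.06 points (exact permutation p = 0.0286, adjusted p = 0.229). ASC 2 was the only ASC library inside the sham range, so leaving it out separates the groups and that p cannot test a shift. The Lama5 share differed by 2.08 points (exact p = 0.229, adjusted p = 0.457). The Lamb2 share of beta chains differed by 2.83 points (exact p = 0.429, adjusted p = 0.555), with ASC 3 and ASC 4 at 53.4% and 57.6% above every sham library and ASC 1 and ASC 2 at 46.7% and 47.0%, just below the sham range of 47.2% to 50.3%. The shares of Lama4, Lamb1, Lamc1, Nid1 and Hspg2 in their classes had exact permutation p-values of 0.143 to 0.629 (adjusted p of 0.457 to 0.629). Without ASC 1 the Nid1 share differed by -0.65 points, against -0.44 with all libraries (exact permutation p = 0.0286, adjusted p = 0.229). ASC 1, at 99.59%, was the only ASC library inside the sham range of 99.17% to 99.7% for Nid1. Leaving it out likewise separates the groups.

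Nidogens are short rods that bridge the gamma 1 chain of laminin and type IV collagen. Nid1 had 2413, 2334, 2048 and 1824 CPM in ASC and 2065, 1968, 1969 and 1533 CPM in sham. Its transcripts outnumbered those of the gamma chains 13.0 ± 1.74 times per exonic kb in ASC and 12.7 ± 0.592 times in sham. The log2 fold change was 0.19 (SE 0.14, interval -0.12 to 0.51; edgeR adjusted p = 0.577). Nid2, its less abundant relative, had 7.40, 20.6, 13.1 and 24.1 CPM in ASC and 4.59, 10.04, 12.4 and 6.92 CPM in sham. ASC 2, ASC 3 and ASC 4 lay above every sham library and ASC 1 lay among them. Its log2 fold change of 0.94 was the largest of the 9 and also the least certain (SE 0.43, interval -0.06 to 1.94; edgeR adjusted p = 0.368). Nid1 held 99.0% ± 0.56 of the nidogen level in ASC and 99.4% ± 0.226 in sham.

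Markers of other cells are given beside Nid2, library by library. The summed macrophage markers were 15.8, 50.6, 44.7 and 44.8 CPM in ASC and 9.41, 29.1, 29.4 and 21.1 CPM in sham. ASC 1 and sham 1 were the lowest of their groups, as for Nid2, but ASC 2 was the highest, against ASC 4 for Nid2. The summed pigment markers were 239, 436, 578 and 809 CPM in ASC and 197, 200, 309 and 106 CPM in sham. In ASC they were again lowest in ASC 1 and highest in ASC 4, but sham 4 was their lowest sham library. The summed retinal markers were 1958, 3070, 3755 and 3588 CPM in ASC and 1021, 1121, 4186 and 2058 CPM in sham, with ASC 1 and sham 1 lowest. Lens fibre markers went the other way in ASC, with ASC 1 highest at 24060 CPM. Of the pigment markers 1 of 10 tested was called, and of the macrophage markers 0 of 8 (edgeR; 8 and 1 at an unadjusted p under 0.05). For Nid2 the part of these cells was not tested. Among 36 pairs of the 9 tested genes, that of Agrn and Nid2 did not pass adjustment. Its Pearson r was 0.75 (exact permutation p = 0.0344, adjusted p = 0.277, n = 8). Its Spearman rho was 0.79 (exact permutation p = 0.0279, adjusted p = 0.412, n = 8). Without the 2 libraries farthest from the median of Nid2, r was 0.94. For Agrn too, the part of other cells was not tested.

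**Figure D4:**
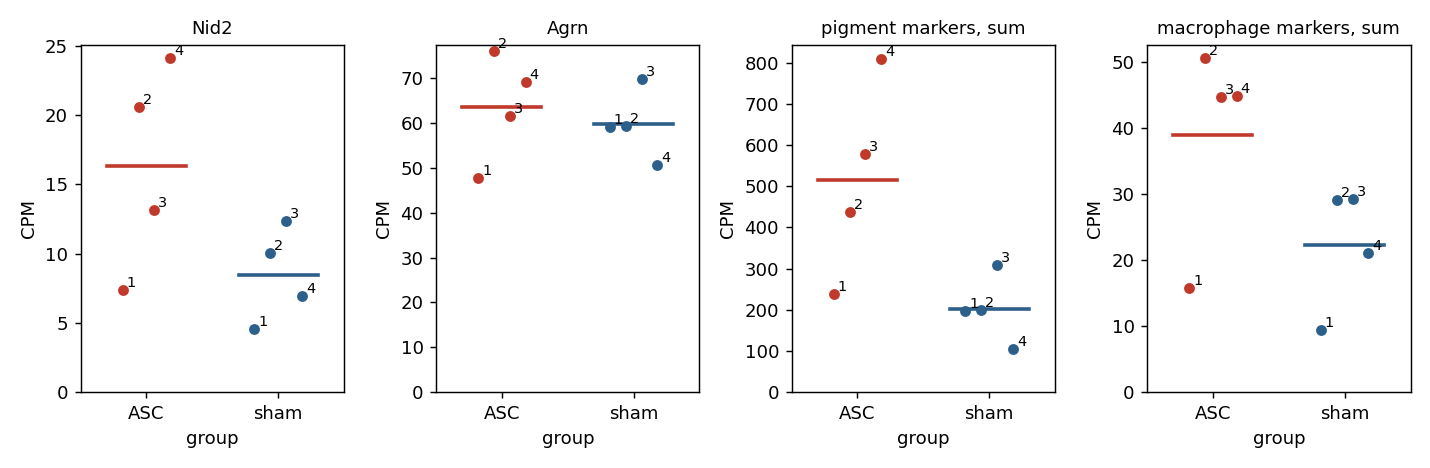
CPM of Nid2 and Agrn and the summed CPM of 10 pigment cell and 10 macrophage markers, by group (ASC left, sham right), with points numbered by replicate and a line at the mean, n = 4 each. ASC 1 is the lowest ASC library in all 4 panels, at 7.40 CPM for Nid2 and 47.7 CPM for Agrn.

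Perlecan and agrin carry heparan sulphate chains, which bind growth factors such as FGF2. Hspg2 had 1696, 1678, 1438 and 1663 CPM in ASC and 1513, 1237, 1488 and 1082 CPM in sham. ASC 1, ASC 2 and ASC 4 lay above every sham library, while ASC 3 fell among them. The log2 fold change was 0.28 (SE 0.14, interval -0.02 to 0.59; edgeR adjusted p = 0.373). Agrn had 47.7, 76.0, 61.4 and 69.2 CPM in ASC and 59.0, 59.3, 69.7 and 50.7 CPM in sham, with ASC 1 the lowest of all 8 (log2 fold change 0.09, SE 0.14, interval -0.22 to 0.40; edgeR adjusted p = 0.817). Hspg2 held 94.3% ± 1.06 of the summed level of both genes per exonic kb in ASC and 93.5% ± 0.559 in sham.

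**Figure D5:**
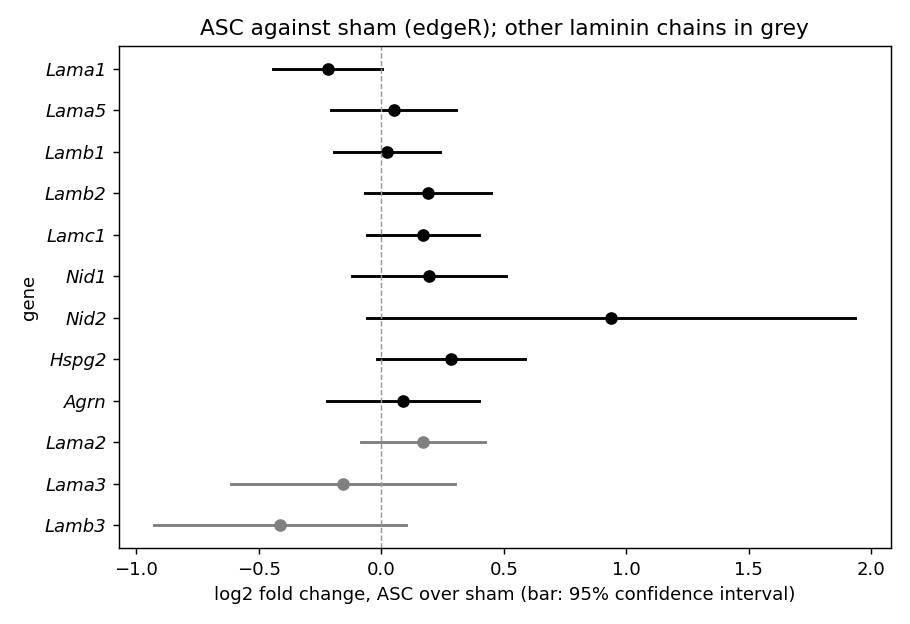
Log2 fold change of ASC over sham from edgeR with its 95% confidence interval, for the 9 tested genes (black) and 3 other laminin chains (grey), n = 4 libraries per group. Every interval includes 0; the widest is that of Nid2, from -0.06 to 1.94, and apart from it no interval of the black genes reaches beyond 0.59 in size.

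Some of the abundant genes were high or low in the same libraries. Sham 4 was the lowest sham library for 6 of the 9 genes and ASC 3 the lowest ASC library for 5. Of 36 pairs of the 9 genes, 6 had a Pearson correlation of log2 CPM with an exact permutation p under 0.05 and 0 passed adjustment (n = 8 libraries). Lamc1 and Hspg2 were the closest pair (r = 0.87, exact permutation p = 0.0053, adjusted p = 0.192; rho = 0.74, exact permutation p = 0.0458, adjusted p = 0.412; r = 0.62 without the 2 farthest libraries). Lamb1 and Nid1 came next (r = 0.79, exact permutation p = 0.0179, adjusted p = 0.277; rho = 0.74, exact permutation p = 0.0458, adjusted p = 0.412; r = 0.69 without the 2 farthest libraries). For Nid1 and Hspg2 r was 0.76 (exact permutation p = 0.0308, adjusted p = 0.277; rho = 0.74, exact permutation p = 0.0458, adjusted p = 0.412) but 0.24 without the 2 farthest libraries, so that relation rests on them. Taken as deviations from the group means, r was 0.80 for Lamc1 and Hspg2, 0.85 for Lamb1 and Nid1 and 0.66 for Nid1 and Hspg2. The values of a pair share library and scaling factor.

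Among the 9433 other genes whose log2 CPM averaged 3 or more, the 5 most like Lamc1 over the 8 libraries were Ogdh, a subunit of a mitochondrial dehydrogenase of the citric acid cycle, the transcription factors Etv6 and Yy1, Herpud2, and Slc3a2, an amino acid transporter subunit that also binds integrins. Their likeness, chosen as the highest of all and given without a test, was a Pearson correlation of 0.94 to 0.96 and a Spearman correlation of 0.83 to 0.93. None was called between ASC and sham (log2 fold changes 0.12 to 0.23, edgeR adjusted p of 0.404 or more). In the same ranking 43 of these genes were more like Lamc1 than Hspg2 was.

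The promoters of Nid1, Hspg2 and Lamb1 are shown as those of abundant genes of these closest pairs and for which RefSeq (GRCm38.p6) gives one. Each runs from 250 bases before to 50 bases after the annotated start, and capitals mark the GC box GGGCGG or its reverse complement CCGCCC, the only motif searched. They lie at chr13:13437352-13437651, chr4:137468553-137468852 and chr12:31265043-31265342, all on the plus strand.
Nid1: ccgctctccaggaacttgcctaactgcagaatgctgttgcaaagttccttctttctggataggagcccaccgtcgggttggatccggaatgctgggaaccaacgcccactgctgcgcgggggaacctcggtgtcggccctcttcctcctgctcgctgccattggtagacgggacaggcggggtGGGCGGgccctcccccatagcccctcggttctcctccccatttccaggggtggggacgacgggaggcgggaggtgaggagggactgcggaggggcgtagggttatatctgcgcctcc
Hspg2: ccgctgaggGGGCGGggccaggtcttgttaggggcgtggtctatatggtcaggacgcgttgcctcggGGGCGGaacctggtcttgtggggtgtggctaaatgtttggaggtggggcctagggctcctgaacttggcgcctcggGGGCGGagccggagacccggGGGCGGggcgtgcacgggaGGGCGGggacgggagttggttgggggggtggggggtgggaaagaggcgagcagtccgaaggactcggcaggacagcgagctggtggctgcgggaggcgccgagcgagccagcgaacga
Lamb1: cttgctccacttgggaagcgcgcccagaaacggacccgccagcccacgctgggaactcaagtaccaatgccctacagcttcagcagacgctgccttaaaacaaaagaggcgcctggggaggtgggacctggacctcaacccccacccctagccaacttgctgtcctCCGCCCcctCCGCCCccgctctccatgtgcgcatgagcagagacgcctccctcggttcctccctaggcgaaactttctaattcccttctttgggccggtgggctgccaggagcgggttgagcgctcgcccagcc
Nid1 held 1 GC box, Hspg2 5 and Lamb1 2, and 35.7% of 32851 RefSeq promoters of that length hold at least 1. They held 20, 27 and 18 CpG dinucleotides, and 29.7% of all promoters hold 18 or more. Promoters of Lama5 (24 CpG, 4 GC boxes), Lamb2 (4 CpG, 0 GC boxes) and Lama2 (1 CpG, 1 GC box) spanned a wide range although all of these genes were transcribed. A match describes these letters and is no evidence of binding.

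The partners of these proteins in the capsule were counted from lists of other genes, in the same edgeR test. The counts in brackets are those at an unadjusted p under 0.05 and those called by the other tools, DESeq2 and limma-voom. Over all 15857 tested genes edgeR called 1.02%, and 14.7% had an unadjusted p under 0.05. No list was tested as a set. Of 8 tested basement membrane collagens 0 were called (0 unadjusted, 0 by the other tools), with a median log2 fold change of -0.02. Col4a1 and Col4a2, the ubiquitous type IV collagen chains, were the most abundant at 978 and 634 CPM per exonic kb over the 8 libraries, with log2 fold changes of 0.01 (SE 0.17) and 0.05 (SE 0.17). Of 15 other basement membrane proteins 0 were called (0 unadjusted, 0 by the other tools), with a median of 0.22. Sparc, a calcium-binding collagen chaperone, and Npnt, an integrin ligand of epithelia, led that list at 993 and 75.8 CPM per exonic kb and had log2 fold changes of -0.01 (SE 0.14) and -0.02 (SE 0.14). Of 7 tested netrins and related proteins with laminin-type domains 0 were called (0 unadjusted, 0 by the other tools; median 0.10). Ntn4, a netrin that binds the gamma 1 chain and can open laminin networks, had 67.0 to 141 CPM in ASC and 104 to 133 CPM in sham (-0.19, SE 0.21), and Megf9 had a log2 fold change of 0.12 (SE 0.10).

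Of 10 tested genes listed as laminin- or perlecan-binding integrins 0 were called (1 unadjusted, 0 by the other tools, median 0.06). Itgb5 and Itgb1, which encode beta subunits, were the most abundant, at 120.6 and 89.3 CPM per exonic kb, with log2 fold changes of 0.06 (SE 0.105) and 0.05 (SE 0.11). Itgb4, another beta subunit, had 1.10 to 2.09 CPM in ASC and 1.21 to 2.75 CPM in sham. Of 20 tested genes of the dystroglycan complex and other receptors 0 were called (2 unadjusted, 1 by DESeq2, 0 by limma-voom; median 0.09). Rpsa, known both as a ribosomal protein and as a laminin receptor, had a log2 fold change of 0.24 (SE 0.16), and the syndecan Sdc2 one of 0.09 (SE 0.12). Of 13 tested enzymes that glycosylate dystroglycan, which gives it its laminin-binding sugar, 0 were called (3 unadjusted, 0 by the other tools; median 0.03). B4gat1 and Pomgnt1 had log2 fold changes of 0.12 (SE 0.10) and 0.04 (SE 0.09).

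Of 22 tested heparan sulphate enzymes 0 were called (3 unadjusted, 0 by the other tools; median 0.04). B3gat3, which completes the linker on which the chain is built, and the sulphotransferase Hs6st1 had log2 fold changes of 0.20 (SE 0.09; edgeR adjusted p = 0.34) and 0.06 (SE 0.12). Of 21 folding and cross-linking enzymes 0 were called (4 unadjusted, 0 by the other tools; median 0.07). The collagen chaperone Serpinh1 and the prolyl hydroxylase subunit P4ha1 had log2 fold changes of 0.12 (SE 0.12) and 0.09 (SE 0.11). Of 15 tested proteases that act on these proteins 1 rose and 0 fell (5 unadjusted, 2 by DESeq2, 2 by limma-voom; median 0.32). It was Plau, urokinase, which turns plasminogen into plasmin, with 1.59, 3.53, 3.99 and 2.02 CPM in ASC and 0.468, 0.233, 0.339 and 0.149 CPM in sham. The sham levels rest on few reads, as 1 read in sham 4 equals 0.0744 CPM. The groups did not overlap, and the log2 fold change was 3.16 (SE 0.45; edgeR adjusted p = 0.0056). Without ASC 3 and ASC 4 it was 3.04 and did not pass (edgeR adjusted p = 0.0819).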

How the data were processed

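RNA-seq was analysed from 8 mouse lens capsule libraries, 4 ASC and 4 sham. The authors deposited 1 table of whole-number read counts per gene, not normalized. The submitters' processing notes name featureCounts (1.5.0-p3), HISAT2 (2.0.5), CASAVA and fastp. The sources used here give no genome build, annotation, strand setting or treatment of multiply mapped reads, so reads of overlapping or antisense genes cannot be told apart. Per the labels, RNA was selected by poly-A and primed randomly. All 54532 lines named a gene, 54409 matched a symbol, and GENCODE mouse release 21 gave lengths.

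Counts were tested with edgeR 4.0.16 in R 4.3.3: filterByExpr by group (15857 genes), TMM scaling, robust quasi-likelihood F test (ASC over sham, without covariates), Benjamini-Hochberg adjustment over all genes tested, threshold 0.05. The standard error (SE) is the log2 fold change divided by the square root of F. Library totals were 14420494 to 21141582 counts, without molecular identifiers, so limits on a count of 0 (3 reads) cover counting error only. The test was tried on simulated counts. Log2 CPM used a prior count of 2. The 10 genes and the other lists (21 with the 10 genes, 10 of them cell type markers) were chosen with earlier results of these data known. The naming rule took the 10 genes, other laminin chains, from each further list up to 3 called genes by size of change or else its 2 most abundant per length, and the 5 genes most like Lamc1; other names were chosen after values were seen. Alternatives were DESeq2 1.42.0, limma-voom (limma 3.58.1), other scalings, filters and lengths, crystallin genes left out, no robust estimation, the replicate number as a block and each library left out. Leaving out ASC 3 and ASC 4, highest in pigment markers, was added after seeing the data. Same-numbered libraries did not deviate together throughout (correlations 0.217, 0.0573, 0.214 and -0.0897), so they were not paired. Of the listed symbols, 2 were not matched and are not analysed here, and some genes of these lists are not reported here.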

Additional observations from a re-analysis of the deposited data

Results flagged for a closer look

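In 90 groups of 4 libraries, 1 per gene or share and condition, the search was for a library far from the other 3, and 7 were found; chance alone marks about 1 group in 20. Lamc1 had its lowest ASC value in ASC 3, at 169.5 CPM against 197 to 202 CPM in the other ASC libraries, and its lowest sham value in sham 4, at 144.8 CPM against 177 to 182 CPM. Hspg2 was likewise lowest in ASC 3, at 1438 CPM against 1663 to 1696 CPM. The Lamc1 share of gamma chains was lowest in sham 4, at 95.9% against 97.1% to 97.3%. The Hspg2 share of Hspg2 and Agrn was highest in sham 1, at 94.3% against 93.1% to 93.3%. Lamc3 was highest in sham 1, at 0.749 CPM against 0.291 to 0.327 CPM, and Ntn4 in sham 2, at 133 CPM against 104 to 107 CPM.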

How the results depend on the processing

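The count of called members was 0 in each of 19 alternative fits. No share difference had an adjusted p under 0.05 in 13 settings, where 1 share alone could not. Unadjusted, Lama1 without ASC 2 and Nid1 without ASC 1 reached the smallest exact permutation p, 0.0286. Each library left out there was the only ASC library inside the sham range of that share, so its omission separates the groups. The count of all genes called, 162 (100 higher and 62 lower in ASC, 75 and 70 with library totals alone), was 571 with DESeq2, 712 with no low-count filter, 38 without ASC 3 and ASC 4, and 56 to 228 without one library (101 without ASC 1, 72 without ASC 3, 67 without ASC 4, 79 without sham 1, 56 without sham 2, 67 without sham 4); the replicate block gave 169 (130 higher, 39 lower). The protease count, 1, was 2 with DESeq2, limma-voom, the 1 CPM filter, no robust estimation, the replicate block or upper-quartile scaling, 0 without ASC 3 and ASC 4, and 1 to 2 without one library. With no low-count filter 1 integrin, 1 other receptor and 1 heparan sulphate enzyme were called; the other receptor count was 1 with DESeq2 and 0 to 1 without one library.

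Signs of uncalled log2 fold changes turned under library totals alone for Agrn (-0.026), Col4a1 (-0.126), Col4a2 (-0.084), Herpud2 (-0.01), Hs6st1 (-0.07), Itgb1 (-0.082), Itgb5 (-0.07), Lama5 (-0.061), Lamb1 (-0.099), Megf9 (-0.018), P4ha1 (-0.032), Pomgnt1 (-0.086), Sdc2 (-0.044), Serpinh1 (-0.011) and Yy1 (0.00). Col4a1 turned to -0.05 with limma-voom, -0.007 with no low-count filter, -0.004 with the replicate block, -0.01 with upper-quartile scaling and -0.043 without ASC 3 and ASC 4; with limma-voom Col4a2 was -0.03 and Lamb1 -0.003. Without ASC 3 and ASC 4 Hs6st1 was -0.074 and the shares of Lamb1 and Lamb2 differed by 1.81 and -1.49 points; these are the ASC libraries with the highest Lamb2 share, so leaving them out fixes that sign. With one library left out, ranges crossing 0 were -0.051 to 0.438 points for the Lamc1 share, -0.035 to 0.121 for Lama5, -0.031 to 0.071 for Lamb1, -0.01 to 0.206 for Agrn, -0.312 to 0.022 for Lama3, -0.095 to 0.093 for Col4a1, -0.065 to 0.136 for Col4a2, -0.056 to 0.046 for Sparc, -0.116 to 0.079 for Npnt, -0.003 to 0.096 for Itgb5, -0.013 to 0.103 for Itgb1, -0.01 to 0.074 for Pomgnt1 and -0.06 to 0.121 for Hs6st1.

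The replicate block moved no call of a member (Nid2 0.895, Hspg2 0.294); the smallest p of its share tests is 0.125. Lama4 and Lamc3 were too shallow to test.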

Other observations

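By a rule set after the values were seen, the 135 tested genes of the lists other than the 10 genes and the cell type markers were searched for those whose ASC and sham libraries did not overlap and whose unadjusted p was under 0.05. There were 8, 6 higher and 2 lower in ASC, and of these edgeR's adjusted threshold was passed by Plau, described above. Over all 15857 tested genes, 9.06% did not overlap and 14.7% had an unadjusted p under 0.05. The share of all genes that met both was not counted, so the 8 are not read as a result about these lists. Adamts1, a protease that cleaves proteoglycans, had 36.5, 49.3, 52.2 and 41.6 CPM in ASC and 11.8, 9.43, 18.7 and 5.21 CPM in sham (log2 fold change 1.98, SE 0.35; edgeR adjusted p = 0.0543), and DESeq2 and limma-voom called it. Itga7, an integrin alpha chain that binds laminin in muscle, had 7.59, 8.04, 9.32 and 20.9 CPM in ASC and 6.18, 7.19, 6.78 and 4.99 CPM in sham (0.86, SE 0.32; edgeR adjusted p = 0.258). The other 3 on the higher side were the membrane-type metalloprotease Mmp15 (0.50, SE 0.20), the lysyl hydroxylase Plod3 (0.25, SE 0.095) and Rxylt1, an enzyme of dystroglycan glycosylation (0.24, SE 0.10). On the lower side, P4ha2, a prolyl hydroxylase subunit, had 151, 130.4, 137 and 137 CPM in ASC and 171, 164, 157 and 170.2 CPM in sham (-0.25, SE 0.087; edgeR adjusted p = 0.205). B3galnt2, another enzyme of dystroglycan glycosylation, had 9.63, 9.12, 9.72 and 10.5 CPM in ASC and 11.2, 14.5, 12.5 and 11.2 CPM in sham (-0.34, SE 0.13; edgeR adjusted p = 0.256).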
